A study of Homo sapiens with 6 samples.

Results

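The genes described here are 47 genes that act at DNA replication origins and at the replication fork, of 58735 genes in the count table. They were chosen by gene symbol from a list ordered by role. The list held 9 origin licensing genes, 11 subunits of the replicative helicase, 6 genes that activate the helicase, 9 subunits of the replicative DNA polymerases, 8 genes of the sliding clamp, its loader and lagging strand processing, and 4 genes of nucleotide supply. All 47 were present in the table, and all 47 were among the 17574 genes that passed the filter on low counts. The smallest count of any of them in any library was 285, for GINS3, so none passed the filter through the libraries of a single group.

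Total RNA was sequenced from unirradiated human colorectal cancer cells in 6 libraries. They comprise 3 control libraries and 3 from a stable knockdown of CNOT7, a catalytic subunit of the CCR4-NOT complex that shortens the poly(A) tails of messenger RNA. The labels name the cell line SW480, while the study's text names HCT116 for this experiment. Knockdown cells carried a lentiviral shRNA against CNOT7, and the titles mark the controls as shNc. Which shRNA each knockdown library carried, and whether a line was a pool or a single clone, was not given in the sources used here. Nothing in the labels says that the libraries of a group came from separate cultures, so the p-values measure only the spread between these libraries, which may be technical.

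Total counts per library were 23788451 to 25982493 in control cells and 27523812 to 29104872 in knockdown cells, and mitochondrial genes took 6.36 to 6.88% and 6.54 to 7.4% of them. CNOT7 stood at 179 ± 11.3 CPM (SD, n = 3) in control cells and at 43.1 ± 4.31 CPM (SD, n = 3) in knockdown cells, where CPM is the count scaled to a common library size. That is 24.1% of the control level (log2 fold change -2.05, SE 0.0734, adjusted p = 2.64e-12 in edgeR's quasi-likelihood test). The epithelial markers EPCAM, KRT8, KRT18 and KRT19 and the intestinal factor CDX2 were present in every library, whereas KRT20, CDX1, LGALS4 and CEACAM5 were at or near 0. Summed over the 13 colorectal epithelial markers, the level was 5760 to 6200 CPM in control and 5360 to 5950 CPM in knockdown libraries, a sum made up mostly of KRT8 and KRT18. Its members did not move together. CDH1, which encodes E-cadherin, rose by 0.51 on the log2 scale (SE 0.0794, adjusted p = 0.000155) and VIL1, which encodes villin, by 0.72 (SE 0.0955, adjusted p = 2.93e-05), both in all 12 alternative fits, whereas KRT8 and KRT19 fell by 0.15 and 0.18 (adjusted p = 0.0414 and 0.0212), calls that were lost in 6 and 5 of those fits, among them the fits with cyclic loess offsets and without control library 1 or 3 or knockdown library 1 or 2. The summed levels of 6 fibroblast, 6 leukocyte and 4 endothelial markers were 9.07 to 10.8, 1.55 to 1.98 and 1.68 to 2.33 CPM in control libraries, and 10.2 to 12, 2.94 to 3.59 and 2.75 to 3.48 CPM in knockdown libraries. COL3A1 and DCN were at 0 in every library and PTPRC in every control library, and the part of these markers in the results was not tested.

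DNA replication is prepared in G1 phase, when the origin recognition complex, CDC6 and CDT1 load the MCM2 to MCM7 ring onto DNA, a step called licensing. At the start of S phase, kinases and activation factors add CDC45 and the GINS complex to this ring, which then unwinds DNA ahead of the polymerases. Many of these genes are known to be transcribed together late in G1 under E2F transcription factors, and their transcripts are abundant in proliferating tumour cells.

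The promoters of the genes were examined for words that resemble the E2F binding site, because E2F factors are the known common regulators of this group. The windows came from RefSeq on GRCh38.p14 and ran from 250 bases before to 50 bases after the start of a transcript. Of the 47 genes, 42 had a window, and MCM4, MCM5, GINS4, RECQL4 and POLD3 had none. The words searched on both strands were TTTGGCGC, TTTGCCGC, TTTCGCGC and TTTCCCGC, whose matches can overlap one another. A word was found in 19 of the 42 windows (45.2%), compared with 908 of 27305 windows over all symbols (3.33%) and 586 of 11361 windows of tested genes (5.16%). Of the helicase subunits, 7 of 8 windows held a word (87.5%). The following 30-base stretches are from the 5 called genes with the largest fold changes that hold such a word, and capitals mark the word or its reverse complement. The GINS1 stretch is at chr20:25407667-25407696 on the plus strand, CDC6 at chr17:40287875-40287904 on the plus strand, TYMS at chr18:657603-657632 on the plus strand, POLE2 at chr14:49688201-49688230 on the minus strand and POLE at chr12:132687342-132687371 on the minus strand.
GINS1: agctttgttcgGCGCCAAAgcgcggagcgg
CDC6: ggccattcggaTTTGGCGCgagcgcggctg
TYMS: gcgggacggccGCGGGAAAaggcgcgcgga
POLE2: ctgcggcggtgGCGCCAAAtcgcaaatatg
POLE: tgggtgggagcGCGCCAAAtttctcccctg
GINS1, CDC6, POLE2 and POLE share the word TTTGGCGC, within 18 bases of the annotated start in each case, and TYMS holds TTTCCCGC. A match is a description of the letters and does not show that a factor binds there.

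The replication genes were lower in knockdown cells as a group, by small amounts. Of the 47 genes, 22 fell at an adjusted p under 0.05 (46.8%), 0 rose and 25 did not pass the test. Over all tested genes, 11.9% fell and 13.3% rose, and among the 10107 tested genes with a mean of at least 10 CPM, as all 47 had, 17.8% fell. The fallen genes stood at 72.2 to 90.7% of their control mean, with GINS1 at the lower and MCM6 at the upper end, and none reached an absolute log2 fold change of 0.5. The median log2 fold change of the 47 genes was -0.17, with a range of -0.47 to 0.11, compared with 0.0039 for all tested genes and -0.04 for those of at least 10 CPM. The estimate was below 0 for 42 of the 47 genes, compared with 49.3% of all tested genes and 57.9% of those of at least 10 CPM. In bulk RNA, a smaller share of cells in S phase and less of each transcript per cell cannot be told apart.

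The spread between libraries was compared with the shift. Summed over the 47 genes, the level was 6376, 6393 and 6411 CPM in the control libraries and 5546, 5696 and 5589 CPM in the knockdown libraries. The groups did not overlap, and the control libraries lay within a narrow range. For 28 genes every knockdown library was below every control library, and for 0 genes every knockdown library was above, where 18.2% of all tested genes showed the lower pattern. These 28 were the 22 called genes together with ORC1, CDC45, POLA1, PRIM2, POLD2 and RFC5. Relative to the control mean, the median gene stood at -0.19, -0.10 and -0.19 on the log2 scale in knockdown libraries 1, 2 and 3, so knockdown library 2 was the least shifted. The number of called genes was 14 without knockdown library 1 and 27 without knockdown library 2, and 15 to 19 without each of the other 4 libraries. With cyclic loess offsets, which remove a trend of the fold change with abundance, 16 of the 47 genes fell, against 10.5% of all tested genes, and 39 estimates were below 0, since those of ORC4, POLD2 and RFC2 were then slightly above it.

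**Figure D1:**
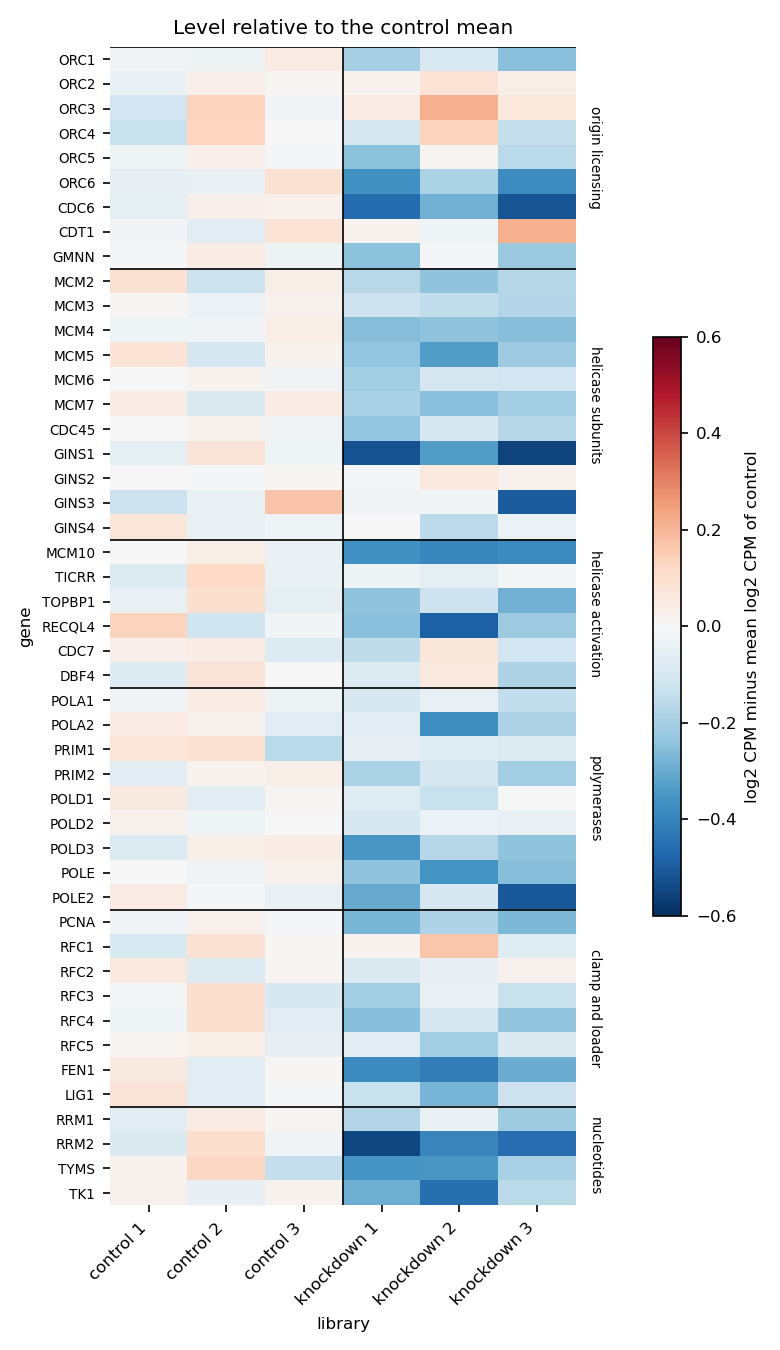
Level of each replication gene (rows, by role) in each library (columns) as log2 CPM minus the mean log2 CPM of the control libraries, with blue for lower and red for higher. The 3 knockdown columns are mostly blue, with 42, 39 and 41 of 47 genes below the control mean, and ORC2, ORC3, CDT1, GINS2 and RFC1 are the genes whose fitted change is above 0.

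Of the 22 called genes, 12 fell in each of 12 alternative fits that changed the tool, the scaling, the filter or the set of libraries. They were CDC6, MCM4, MCM5, GINS1, MCM10, RECQL4, POLE, PCNA, FEN1, RRM2, TYMS and TK1, and they include at least 1 gene of every role. The same share was not counted over all tested genes, so this number is not set against a background. The fold change had little relation to the level among the 47 genes. Spearman's rho across genes was -0.129 with the mean CPM of the control libraries and -0.067 with their mean level per length. It was 0.001 with gene length. Over all 17574 tested genes, rho was -0.234 with the mean CPM of both groups together, which is another measure of level. More abundant genes thus tended to lower fold changes over the whole table. The 47 genes share the same libraries and are not independent replicates.

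**Figure D2:**
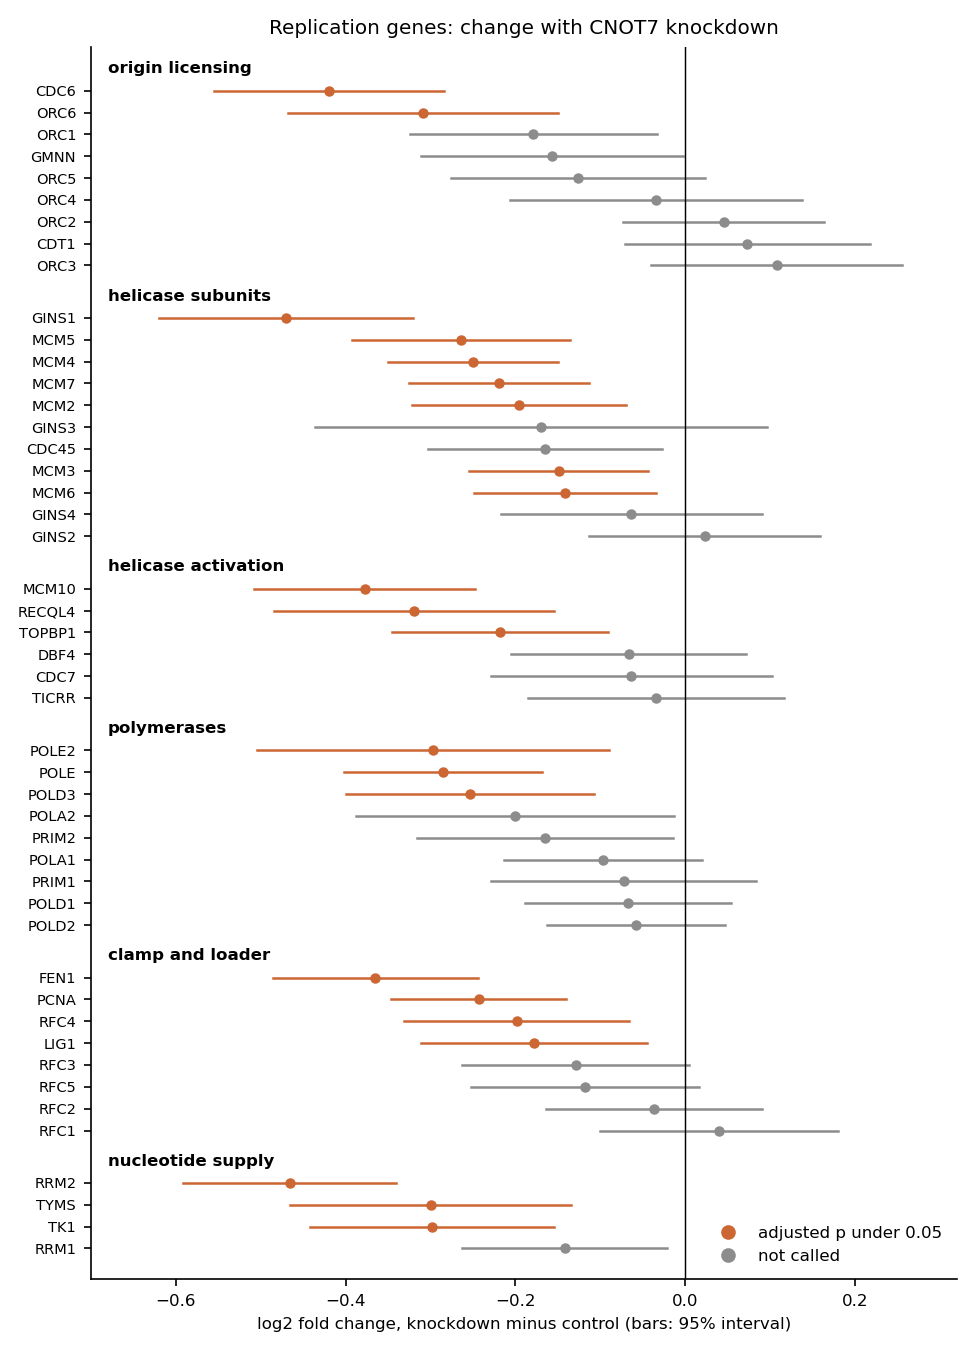
Log2 fold change, knockdown minus control (horizontal axis), of each replication gene with its 95% interval (bars), by role, with called genes in orange and the others in grey. The called genes lie between -0.47 (GINS1) and -0.14 (MCM6), and the intervals of the 25 others end close to or above 0.

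Origin licensing was the role with the smallest share of called genes. It held 2 fallen genes of 9 (22.2%), and its median was -0.13 on the log2 scale, with 6 estimates below 0. The share of fallen genes was near the 17.8% of all tested genes of at least 10 CPM. CDC6, the ATPase that joins the origin recognition complex to load the helicase (chr17:40287633-40304657), stood at 113, 120.1 and 119.9 CPM in control libraries 1 to 3. In knockdown libraries 1 to 3 it stood at 85.6, 96.2 and 82.2 CPM. The groups did not overlap, with knockdown library 2 the nearest to control, and the log2 fold change was -0.42 (SE 0.0642, adjusted p = 0.000119). ORC6, the smallest subunit of the origin recognition complex (chr16:46689643-46698394), was measured at 41.1, 41.1 and 45.2 CPM in control and at 33, 37.2 and 32.7 CPM in knockdown libraries. Its fall was -0.31 on the log2 scale (SE 0.0752, adjusted p = 0.00581), and the call was lost without control library 3.

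The other subunits of the origin recognition complex did not pass the test. The largest estimate was that of ORC1, at -0.18 (95% interval -0.32 to -0.03), and the smallest that of ORC4, at -0.03 (-0.21 to 0.14). ORC2 and ORC3 had estimates of 0.05 and 0.11. CDT1, the second loading factor, had an estimate of 0.07, which was -0.0074 without knockdown library 3, and its inhibitor geminin, encoded by GMNN, one of -0.16. The ratio of CDC6 to CDT1 per unit of length was 0.769, 0.847 and 0.763 in control and 0.567, 0.659 and 0.477 in knockdown libraries. Both factors are needed for loading. The CDC6 transcript passed the test and the CDT1 transcript did not, and the difference between them was not tested. Per unit of length, the ratio of CDT1 to GMNN was 1.37 ± 0.107 in control and 1.62 ± 0.249 in knockdown cells (SD, n = 3), with overlapping groups. With 9 genes the count depended on single libraries, with 1 gene called without control library 3 and 5 without knockdown library 2.

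The subunits of the CMG helicase, named after CDC45, the MCM ring and GINS, gave the highest share outside nucleotide supply. Of the 11, 7 fell (63.6%), against 17.8% of tested genes of at least 10 CPM. The estimates of 10 were below 0, and the median was -0.17. GINS1 (chr20:25407727-25452628), a subunit of the GINS complex that holds CDC45 to the ring, stood at 66.7, 73.0 and 67.9 CPM in control and at 48.1, 54.8 and 47 CPM in knockdown libraries. This was the largest fall of the 47 genes, at -0.47 (SE 0.0709, adjusted p = 0.000105), with no overlap of the groups. The other GINS subunits did not pass the test. GINS3 had an estimate of -0.17 (95% interval -0.44 to 0.10) and GINS2 one of 0.02 (-0.11 to 0.16), and GINS4 lay between them at -0.06. The ratio of GINS1 to GINS2 per unit of length was 1.26, 1.39 and 1.27 in control and 0.919, 0.998 and 0.874 in knockdown libraries. This pair was chosen after its values were seen, so the ratio is given without a test, and the difference in change between the subunits was not tested.

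All 6 genes of the MCM ring fell. MCM5 (chr22:35400063-35425430) stood at 143, 126 and 137 CPM in control and at 115, 107 and 116 CPM in knockdown libraries, a log2 fold change of -0.26 (SE 0.0609, adjusted p = 0.00406). MCM4 was very even within the groups, at 490.1, 494 and 514 CPM in control and 419, 422 and 419 CPM in knockdown libraries, and fell by 0.25 (SE 0.0474, adjusted p = 0.000868). MCM7 stood at 823, 752 and 824 CPM in control and 698, 670.4 and 692 CPM in knockdown libraries, a log2 fold change of -0.22 (SE 0.0502, adjusted p = 0.00376). In MCM5 and MCM7, control library 2 was the lowest of the controls, and it still lay above every knockdown library. MCM2 stood at 227, 195.0 and 218 CPM in control and at 189.7, 179.9 and 189 CPM in knockdown libraries, a narrower gap, with a log2 fold change of -0.20 (SE 0.0599, adjusted p = 0.0234). MCM3 and MCM6 fell by 0.15 (SE 0.0499) and 0.14 (SE 0.0506) on the log2 scale, with adjusted p-values of 0.0364 and 0.0492. CDC45 did not pass the test, with an estimate of -0.17 and groups that did not overlap.

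The smaller changes in the ring did not hold under every choice. With cyclic loess offsets, 3 helicase subunits remained called, MCM4, MCM5 and GINS1. Without control library 1, control library 3 or knockdown library 1, 4 were called each time, and the calls of MCM2, MCM3 and MCM6 were among those lost. Of the exonic bases of MCM2, 23.6% are shared with an antisense gene at 0.47 CPM, and of those of MCM7, 8.94% with AP4M1, at 34.0 CPM in control and 30.3 CPM in knockdown cells. The strandedness of the counting was not stated.

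Per unit of length, the ring subunits differed widely in this measure. It divides by the gene length given with the counts, such as 7338 bases for MCM5 and 4386 for MCM7. The lengths of the transcripts present were not measured, so the order between genes also depends on the given lengths. In CPM per kilobase, MCM7 was the highest, at 182 ± 9.39 (SD, n = 3) in control and 157 ± 3.30 in knockdown cells. MCM6, MCM4 and MCM3 followed at 80.3 ± 1.27, 71.6 ± 1.79 and 69.7 ± 1.48 in control cells, where the last of these differed by less than 2 SD. MCM2 was at 43.5 ± 3.37 and MCM5 at 18.4 ± 1.2. The order MCM7, MCM6, MCM3, MCM4, MCM2 and MCM5 in knockdown cells had MCM3 (62.8 ± 1.14) above MCM4 (60.2 ± 0.283). The ratio of MCM4 to MCM6 was 0.874, 0.869 and 0.932 in control and 0.864, 0.809 and 0.811 in knockdown libraries, and its groups were close to each other without overlap. CDC45, at 17.8 ± 0.249 CPM per kilobase, and GINS1, at 17.0 ± 0.832, lay near MCM5 in control cells, and GINS3, at 2.66 ± 0.290, was the lowest of the 47 genes.

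Of the 6 genes that activate the loaded helicase, 3 fell (50%), against 17.8% of tested genes of at least 10 CPM. All 6 estimates were below 0, with a median of -0.14. MCM10, which binds the assembled helicase and is needed for it to start unwinding (chr10:13161554-13211104), stood at 60.4, 61.9 and 58.7 CPM in control and at 46.9, 46.0 and 46.3 CPM in knockdown libraries. Both groups were tight, and the log2 fold change was -0.38 (SE 0.0618, adjusted p = 0.000228). RECQL4, a RecQ helicase that takes part in initiation, stood at 91.8, 77.1 and 82.8 CPM in control and 70.3, 59.5 and 72.0 CPM in knockdown libraries, with a log2 fold change of -0.32 (SE 0.078, adjusted p = 0.00596). Library 2 was the lowest of its group in both conditions. TOPBP1, the scaffold through which GINS is recruited and which also activates the checkpoint kinase ATR, stood at 176, 194 and 175 CPM in control and 154, 167 and 149 CPM in knockdown libraries. It fell by 0.22 on the log2 scale (SE 0.0603, adjusted p = 0.0131), and the call was lost without control library 2 and without knockdown library 1.

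The kinase that fires origins did not pass the test. Its catalytic subunit CDC7 had an estimate of -0.06 and its regulatory subunit DBF4 one of -0.07 (95% interval -0.20 to 0.07). TICRR, also known as treslin, the partner of TOPBP1, had the smallest estimate, at -0.03 (-0.18 to 0.12), which was above 0 without control library 2. The ratio of DBF4 to CDC7 per unit of length was 3.32 ± 0.222 in control and 3.31 ± 0.163 in knockdown cells (SD, n = 3), with overlapping groups.

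Of the 9 subunits of the replicative polymerases, 3 fell (33.3%), 2 of them of polymerase epsilon, which copies the leading strand. All 9 estimates were below 0, with a median of -0.17. POLE, its catalytic subunit (chr12:132623753-132687365), stood at 132, 129.9 and 135 CPM in control and at 112, 103 and 110.5 CPM in knockdown libraries. The log2 fold change was -0.29 (SE 0.0555, adjusted p = 0.00106). POLE2, its second subunit, stood at 22.5, 21.7 and 21.1 CPM in control and at 17.6, 20.3 and 15.3 CPM in knockdown libraries, a log2 fold change of -0.30 (SE 0.0984, adjusted p = 0.0344). Knockdown library 2 came within about 1 CPM of the lowest control library. The call of POLE2 was lost without control library 1 or 3 and without knockdown library 1 or 3. Per unit of length, the ratio of POLE2 to POLE was 0.927 ± 0.0412 in control and 0.924 ± 0.168 in knockdown cells (SD, n = 3), with overlapping groups.

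POLD3, an accessory subunit of polymerase delta, the lagging strand enzyme, stood at 51.4, 55.8 and 56.1 CPM in control and at 42.7, 48.2 and 46.1 CPM in knockdown libraries. It fell by 0.25 on the log2 scale (SE 0.0693, adjusted p = 0.0123), a call lost without control library 3 and without knockdown library 1. The catalytic subunit POLD1 had an estimate of -0.07, and POLD2 had the smallest of the role, at -0.06 (95% interval -0.16 to 0.05). None of the polymerase alpha and primase genes, which lay down the primers, passed the test. POLA2 had the largest estimate of them, at -0.20 (-0.39 to -0.01), PRIM2 had -0.17, POLA1 had -0.10 and PRIM1 had -0.07. Without control library 3 or knockdown library 1, 1 of the 9 polymerase genes was called, and the share of 33.3% is to be read against 17.8% of tested genes of at least 10 CPM.

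Of the 8 clamp, loader and lagging strand processing genes, 4 fell (50%), with a median of -0.15 and 7 estimates below 0. Among tested genes of at least 10 CPM, 17.8% fell. FEN1, the flap endonuclease that trims Okazaki fragments (chr11:61792637-61797244), stood at 154, 141 and 149.5 CPM in control and at 114, 111 and 121 CPM in knockdown libraries. The groups were well apart, with a log2 fold change of -0.36 (SE 0.0572, adjusted p = 0.000152). PCNA, the sliding clamp that tethers the polymerases to DNA (chr20:5114953-5126626), stood at 439, 450.2 and 440.1 CPM in control and at 367, 389 and 367 CPM in knockdown libraries. It fell by 0.24 (SE 0.049, adjusted p = 0.00144), and at 301 ± 4.30 CPM per kilobase (SD, n = 3) it was the highest of the 47 genes per unit of length in control cells, against 254 ± 8.71 after knockdown.

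LIG1, the ligase that seals Okazaki fragments, stood at 98.1, 88.7 and 92.5 CPM in control and at 84.8, 76.6 and 85.5 CPM in knockdown libraries, with a log2 fold change of -0.18 (SE 0.0632, adjusted p = 0.0476). RFC4, a small subunit of the clamp loader, stood at 106, 116 and 103 CPM in control and at 90.7, 101 and 91.9 CPM in knockdown libraries, with a log2 fold change of -0.20 (SE 0.063, adjusted p = 0.0281). Both calls were lost with cyclic loess offsets and without knockdown library 1, which left 2 of the 8 genes called. The RFC4 call was also lost without control library 2 and knockdown library 3, and the LIG1 call without control libraries 1 and 3 and knockdown library 2 and with a minimum of 10 counts in every library. The other loader subunits were not called. RFC3 had an estimate of -0.13 (95% interval -0.26 to 0.0049), RFC5 one of -0.12, RFC2 one of -0.04 (-0.16 to 0.09), and RFC1, the large subunit, one of 0.04, which was below 0 without control library 1 or knockdown library 2. The ratio of PCNA to RFC1 per unit of length was 16.4, 14.8 and 15.3 in control and 12.6, 12.1 and 13.5 in knockdown libraries. That of RFC4 to RFC2 was 0.886 ± 0.0943 in control and 0.79 ± 0.057 in knockdown cells (SD, n = 3), with overlapping groups.

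Nucleotide supply was the role with the lowest median log2 fold change, at -0.30, and 3 of its 4 genes fell (75.0%). That share rests on 4 genes and is to be read against 17.8% of tested genes of at least 10 CPM. RRM2, the regulated small subunit of ribonucleotide reductase (chr2:10120698-10131419), stood at 296, 339 and 311 CPM in control and at 216, 239.5 and 229 CPM in knockdown libraries. Its log2 fold change of -0.47 (SE 0.0594, adjusted p = 1.87e-05) had the lowest adjusted p of the 47 genes. RRM1, the large subunit, had an estimate of -0.14 (95% interval -0.26 to -0.02, adjusted p = 0.08) and was called in 4 of the 12 alternative fits. The ratio of RRM2 to RRM1 per unit of length was 0.884, 0.932 and 0.874 in control and 0.695, 0.701 and 0.758 in knockdown libraries. RRM2 shares 20.2% of its exonic bases with a gene on the same strand that is at 1.30 CPM in control cells.

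TYMS, thymidylate synthase, which makes dTMP from dUMP, stood at 46.8, 50.2 and 41.7 CPM in control and at 36.1, 36.2 and 40.3 CPM in knockdown libraries. Control library 3 and knockdown library 3 lay close together without overlap, and the log2 fold change was -0.30 (SE 0.0786, adjusted p = 0.00944). TYMS shares 46.6% of its exonic bases with ENOSF1 on the other strand, whose level was 38.9 CPM in control and 39.2 CPM in knockdown cells. TK1, thymidine kinase of the salvage route, stood at 114, 109 and 114 CPM in control and at 91.7, 82.2 and 101 CPM in knockdown libraries, and its log2 fold change was -0.30 (SE 0.0681, adjusted p = 0.00378). Both TYMS and TK1 feed the dTTP pool, by synthesis and by salvage.

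The promoter words were compared with the calls. Of the called genes with a window, 12 of 18 held an E2F-like word (66.7%), and of the genes that were not called 7 of 24 (29.2%). CDC6, GINS1, POLE, POLE2 and TYMS, shown above, are on the first list. MCM6 held 4 overlapping or repeated matches and was the least changed of the called genes, and MCM10, FEN1, RRM2, TK1, ORC6 and RFC4 were called with no match in this window. GINS2, CDT1 and ORC3, with estimates above 0, each held a match. MCM4, MCM5, RECQL4 and POLD3 were called but had no window, so they are in neither share. Only 1 window per gene was searched, although several genes of both shares had more. Among the called genes these were RRM2, TK1, PCNA and MCM7, of which RRM2 and TK1 held no match. Among the genes not called they were ORC4, GMNN, CDC45, TICRR, CDC7, PRIM2 and POLD1, and none of these held a match in the window searched. A search of all windows could change both shares. These shares are descriptions of the 42 windows.

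Genes that act beside these at the fork were read from a separate list. Of 33 other fork genes, 12 fell (36.4%) and 1 rose, with a median of -0.10. The share was 11.9% over all tested genes and 17.8% over those of at least 10 CPM, as most of this list were. CLSPN, which encodes claspin, the adaptor between the fork and the checkpoint kinase CHK1, stood at 47.2, 47.2 and 43.5 CPM in control and at 32.5, 29 and 29.1 CPM in knockdown libraries. Its log2 fold change was -0.60 (SE 0.0735, adjusted p = 1.16e-05), larger than that of any of the 47 genes. TIMELESS, a fork protection factor, fell by 0.29 (SE 0.0506, adjusted p = 0.000423), and the nuclease DNA2, which also processes Okazaki fragments, by 0.32 (SE 0.0736, adjusted p = 0.00428). POLE4, a small subunit of polymerase epsilon, fell by 0.35 (SE 0.0775, adjusted p = 0.00323), and MCM9, a helicase outside the licensing ring, by 0.37 (SE 0.111, adjusted p = 0.0208). POLD4, a small subunit of polymerase delta, rose by 0.38 (SE 0.126, adjusted p = 0.0345) from 6.58, 6.11 and 5.43 CPM to 7.98, 7.07 and 8.49 CPM. The POLD4 call was lost in 7 of the 12 alternative fits, among them each fit without control library 2 or 3 or knockdown library 1 or 3, and the MCM9 call without control library 3 or knockdown library 1 or 3. The count of fallen genes was 7 without control library 3 and 6 without knockdown library 1.

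Regulators of entry into S phase were read from a further list. Of 23 E2F factors and S-phase regulators, 13 fell (56.5%) and 2 rose, with a median of -0.21. Of all tested genes 11.9% fell, and of those of at least 10 CPM, as most of this list were, 17.8%. E2F2, an activator E2F, stood at 26.1, 28.3 and 28.4 CPM in control and at 17.7, 15 and 18.8 CPM in knockdown libraries, with a log2 fold change of -0.68 (SE 0.0909, adjusted p = 2.9e-05). CCNE2, an E-type cyclin that drives entry into S phase, fell by 0.61 (SE 0.118, adjusted p = 0.000986) from 9.73, 11 and 10.4 CPM to 6.42, 6.2 and 7.72 CPM. E2F8, an atypical repressor E2F, fell by 0.49 (SE 0.0765, adjusted p = 0.000134), and E2F3, another activator, by 0.44 (SE 0.0678, adjusted p = 0.000135). LIN52, a subunit of the MuvB core of the DREAM complex, fell by 0.43 (SE 0.0837, adjusted p = 0.00109), and the phosphatase CDC25A by 0.41 (SE 0.0635, adjusted p = 0.000123). The list thus holds activators and repressors of the same targets among its fallen genes. The 2 that rose were TFDP2, a dimerization partner of E2F, at 0.30 (SE 0.0575, adjusted p = 0.000871), and RBL2, the repressive pocket protein p130, at 0.19 (SE 0.0662, adjusted p = 0.0482), whose call was lost in 8 of the 12 alternative fits, among them 5 of the 6 that left out a library (all but that without control library 2). The ratio of TFDP1 to TFDP2 per unit of length was 6.11, 6.40 and 6.0 in control and 4.38, 4.15 and 4.51 in knockdown libraries.

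Of 17 other nucleotide synthesis genes, all above 10 CPM in control cells, 3 fell (17.6%) and 1 rose, with a median of -0.06. The share of fallen genes was that of all tested genes of at least 10 CPM (17.8%), so the list showed no excess. DTYMK, which phosphorylates dTMP on the way to dTTP, fell by 0.31 (SE 0.0698, adjusted p = 0.00346), and UMPS, which makes UMP, by 0.25 (SE 0.0576, adjusted p = 0.00402). MTHFD1, an enzyme of folate metabolism, fell by 0.15 (SE 0.051, adjusted p = 0.0339), and this call was lost with cyclic loess offsets and when any control library or knockdown library 1 or 3 was left out. PAICS, of purine synthesis, rose by 0.18 (SE 0.0531, adjusted p = 0.0168), a call lost without control library 1 or 3 or knockdown library 1. Without knockdown library 2, 5 genes of the list fell.

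Of 11 genes of the ubiquitin machinery that regulates licensing factors, 3 fell (27.3%) and 1 rose, with a median of -0.11. All 11 were above 10 CPM in control cells, where 17.8% of tested genes fell, and with a library left out 2 to 4 of them fell, so the count is not read as a change of the list. CUL4B and CUL4A, paralogous scaffolds of the CRL4 ligase that degrades CDT1, moved apart. CUL4B stood at 238, 276 and 256 CPM in control and at 181, 205 and 176 CPM in knockdown libraries, with a log2 fold change of -0.45 (SE 0.066, adjusted p = 7.02e-05). CUL4A stood at 112, 117 and 116 CPM in control and at 131, 132 and 136 CPM in knockdown libraries, with a log2 fold change of 0.21 (SE 0.0536, adjusted p = 0.00679). Both calls were kept in all 12 alternative fits, and the ratio of CUL4B to CUL4A per unit of length was 2.5 ± 0.133 in control and 1.57 ± 0.150 in knockdown cells (SD, n = 3). USP37, a deubiquitinase, fell by 0.41 (SE 0.0747, adjusted p = 0.000657), and CUL1, the scaffold of the SCF ligase, by 0.17 (SE 0.0587, adjusted p = 0.0456), a call lost with cyclic loess offsets and without control library 2 or 3 or knockdown library 1 or 3. Like GINS1 and GINS2, every pair whose ratio is given here was chosen after its values were seen.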

How the data were processed

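The authors deposited raw counts of fragments or reads per gene for 6 libraries made with TRIzol and a NEBNext Ultra kit, without normalization. The submitters' processing notes name CASAVA 1.8, fastp, HISAT2 2.0.5, featureCounts 1.5.0-p3, DESeq2 1.20.0 and GRCh38, with no strand setting. All 58735 gene positions matched GENCODE release 29.

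Counts were tested in R 4.3.3 with edgeR 4.0.16 (filterByExpr, TMM, quasi-likelihood test, Benjamini-Hochberg adjustment over 17574 genes, threshold 0.05), without a replicate term. Standard errors were taken from the fold change and the F statistic. CPM divided by gene length in units of 1000 bases gave the level per length. That length came with the counts and need not be that of the transcripts in these cells. The steps were tested on simulated data. Alternatives were DESeq2 1.42.0, RLE factors, no filter, a minimum of 10 counts per library, a replicate block, cyclic loess offsets (limma 3.58.1), each library left out, an adjusted p under 0.01 and an absolute log2 fold change of at least 0.5. Leaving out a library left 2 in its group.

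The genes and lists were chosen with earlier results of these data known. Values per library were given for up to 5 called genes per role with the largest absolute log2 fold change, and for genes not called the largest and smallest estimate per role. Of each further list, up to 6 called genes with the largest absolute change were named. TFDP2, RBL2 and the ratios of pairs were added after their values were seen. Replicate pairs differed by more than sampling noise.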

Additional observations from a re-analysis of the deposited data

How the results depend on the processing

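The fall of CNOT7 and the direction of the called replication genes held in all 12 fits. Of their comparisons with the alternatives, and those of the genes not called, 512 stayed on the same side of the threshold, 35 lost a call, 17 gained one and 0 called values reversed. The estimates of ORC4, CDT1, TICRR, POLD2, RFC1 and RFC2, which were not called, changed sign in at least 1 alternative. The median log2 fold change of the 47 genes was -0.13 with cyclic loess offsets, -0.18 with no filter on low counts, and -0.20 to -0.15 with a library left out. With a library left out, the number of genes called lower over the whole table was 1367 to 2219, and the counts of fallen genes were 14 to 27 for the 47 genes, 1 to 5 for origin licensing, 4 to 8 for helicase subunits, 1 to 3 for polymerases, 2 to 4 for the clamp and loader, 6 to 12 for the other fork genes and 2 to 5 for the other nucleotide genes. The counts of risen genes were 0 to 1 for the other fork genes, 0 to 1 for the other nucleotide genes and 1 to 2 for the E2F list. At an adjusted p under 0.01, 14 of the 47 genes fell, and the share of all tested genes at that threshold was not counted. At an absolute log2 fold change of at least 0.5, 0 of the 47 genes fell. Without regard to the test, 4.5% of all tested genes and 2.14% of those of at least 10 CPM had a log2 fold change of -0.5 or lower. With cyclic loess offsets, 3 helicase subunits and 2 clamp and loader genes fell, and 0 other fork genes and 3 other nucleotide genes rose. With DESeq2 and with no filter on low counts, 0 other fork genes and 1 gene of the E2F list rose, and with RLE factors 1 gene of that list rose. The cause of these shifts was not tested.

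Whether the same number in both groups pairs the libraries was not settled. The correlations of their deviations from the group means were 0.0459, 0.2407 and -0.0077 for equal numbers 1 to 3. For unequal numbers they ranged from -0.2345 to 0.2019, so the value for number 2 was the highest of all. With the replicate number as a block, genes called lower numbered 3306 and genes called higher 3202 over the whole table. Of the 47 genes, 30 fell and 1 rose (ORC3). The fallen genes numbered 5 for origin licensing, 5 for polymerases, 7 for the other nucleotide genes and 6 for the ubiquitin machinery list, while 2 other nucleotide genes rose. At 3 libraries per group, the standard errors of the called genes were 0.0474 to 0.0984, and that of GINS3, which was not called, was 0.126. The smallest change that could be called was therefore larger for the genes with larger errors.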
